A study of Bos taurus with 12 samples.

Results

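Solute carriers are the large group of membrane proteins, named SLC with a family number, that move amino acids, sugars, ions, vitamins and metals across the plasma membrane and the membranes of organelles. Their genes carried 88 of the 14094 CpG sites that the authors listed as differentially methylated between young and old dermal fibroblast cultures, 65 of them more methylated in young and 23 more methylated in old cultures. A site was taken when the authors' annotation of its promoter, exon or intron held a gene symbol that begins with SLC and a digit. The 88 sites lay in 53 genes, while the RefSeq gene table of the later assembly ARS-UCD2.0 held 364 such symbols, and it placed all 53 genes on the same chromosome as the list did. Of the listed sites, 4414 had any promoter, exon or intron annotation, and 838705 sites had been tested.

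The sites were thus selected by the young against old contrast itself, through an unadjusted P below 0.05 and a mean difference of at least 10 percentage points. Their direction, size and number are given as a description, with no test. The same selection passed 1.68% of all tested sites, 1.12% in the young and 0.567% in the old direction, and 0 sites passed it (0% of all tested) when P was adjusted by the Benjamini-Hochberg method. No site was measured in other animals.

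DNA was taken from 12 cultures of primary dermal fibroblasts at passage 6, grown in serum-containing medium without any stimulus. They came from 6 Holstein heifers, each sampled at 5 months (young cultures 1 to 6) and again at 16 months of age (old cultures 1 to 6). The heifers had been picked from a larger cohort for a middling cytokine response to lipopolysaccharide, so they do not span the range of that cohort. Reduced representation bisulfite sequencing (RRBS) reads fragments cut by MspI at CCGG (the methods add TaqαI, the labels do not), so most CpGs of a gene are not seen. The study measured cytokine protein and transcripts of selected immune genes in these cultures, but no transcript or protein of a solute carrier. Fibroblast identity could not be checked by expression markers. Holstein animals of other ages, males and cells that were not passaged are not represented.

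Methylation of a CpG is the addition of a methyl group to its cytosine, and it is copied to daughter cells at division. At promoters rich in CpGs, which are called CpG islands, cytosines are mostly unmethylated in cells of the body, and dense methylation there goes with silent transcription. Within introns and exons methylation is commonly high and has no single relation to transcription. Fibroblasts make collagen and other matrix, for which carriers bring in amino acids, vitamin C and metal ions.

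Read counts summed over the tested sites were between 25962640 and 28820145 in young and between 19007741 and 31643295 in old cultures. Old culture 2 had the lowest depth. It also had the largest share of its reads on the 88 sites, 51.7 per 1000000 reads against 43.0 to 44.1 in the other old and 39.5 to 46.4 in the young cultures. With animal 2 left out, 40 of the sites higher in young and 16 of those higher in old still passed the selection. The methylation ratio of a site is the share of reads that kept a C, given below in percent, and differences are young minus old in percentage points (points). Site values are the mean ± SD over 6 cultures, and differences the mean ± SD over 6 animals. Median coverage of the 88 sites was 11.8 reads per culture, so 1 read moved a ratio by several points, and 81 of the sites had under 10 reads in some culture. Positions are those of bosTau8 in the authors' list, each for 1 strand. No sequence is shown, since no genome of that build was used here.

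Over the 65 sites higher in young, the mean ratio per culture was between 49.8% and 55.7% in young and between 25.3% and 33.8% in old cultures. Over the 23 sites higher in old it was between 36.0% and 49.1% in young and between 60.2% and 62.8% in old cultures. These ranges stand apart by the way the sites were chosen. Sites higher in young made up 73.9% of the solute carrier sites, 67.6% of all annotated listed sites and 66.3% of the whole list. This difference in share was not tested.

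The direction was the same in all 6 animals at 34 sites (38.6%), 26 higher in young and 8 higher in old. Of all tested sites, 1.09% had that agreement, 0.693% higher in young and 0.393% higher in old. Together with a mean difference of 10 points or more it was found at 0.776% of all tested sites. Of the annotated listed sites 42.0% had the agreement. At 34 of the 65 young sites and 13 of the 23 old sites, 5 animals moved with the mean. The ratios of young and old cultures did not overlap at 5 sites, in SLC26A10, SLC25A42, SLC39A11 and, at a pair of sites, SLC39A13. Such a separation occurred at 5.68% of the solute carrier sites, 7.32% of the annotated listed sites and 0.123% of all tested sites. These shares are for single sites and do not apply to the locus means given below. The median absolute difference was 20.7 points (from 10.2 to 55), against 18.7 over the annotated listed sites. The absolute difference reached 25 points at 25 sites (28.4%), 22 of them higher in young, against 25.8% of the annotated listed sites. Of all tested sites, 0.390% passed the selection with that minimum.

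**Figure D1:**
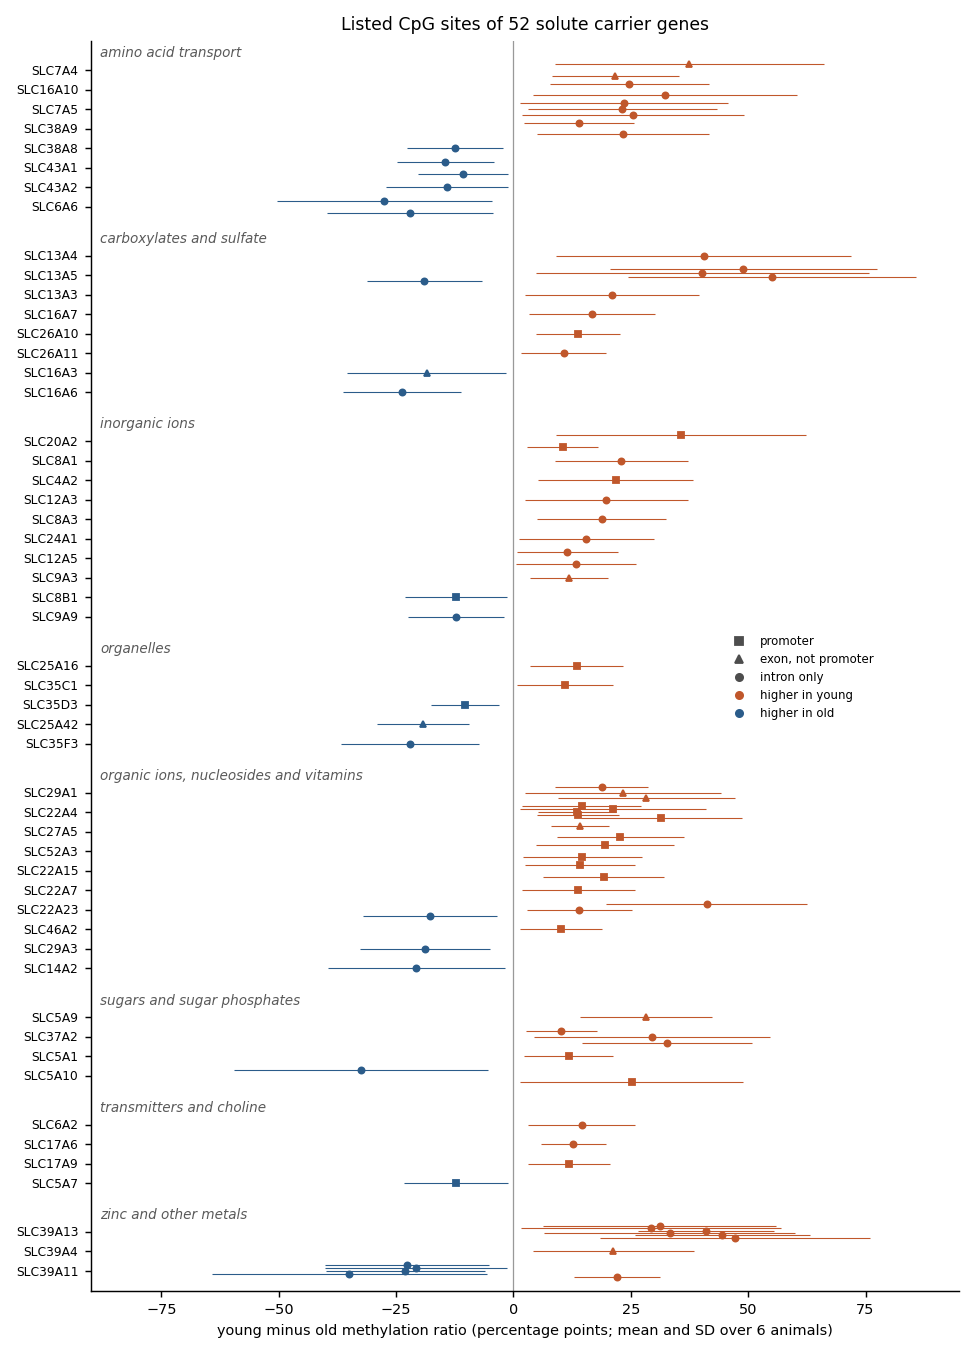
Young minus old difference in methylation ratio (horizontal axis, percentage points) at 87 of the 88 listed sites, in 52 genes, by gene and transport role; points are means and bars SDs over 6 animals, squares promoter, triangles exon and circles intron sites. Sites higher in young lie right of 0 and sites higher in old left, and SLC13A5, SLC39A11, SLC22A23 and SLC5A10 have sites on both sides.

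Of the 53 genes, 35 had listed sites only higher in young, 14 only higher in old and 4 had both. A single listed site was found in 34 genes, and 19 genes held 54 sites between them, with 6 in SLC39A13 and 5 each in SLC39A11 and SLC22A4. Sites at most 100 bp from the next listed site were joined into loci, which gave 68 loci, 11 of them with several sites (31 sites in all). Within each of these 11 loci the listed sites shared 1 direction. Neighbouring CpGs are often read on the same fragments. Of the 23 pairs of same-strand sites within loci, 6 had equal coverage in all 12 cultures, so the listed sites of a locus are not separate measurements.

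Zinc carriers of the SLC39 family, which bring zinc into the cytosol, held the most sites per gene: 12 sites in 3 genes, 8 higher in young and 4 in old. The locus with the most sites was in an intron of SLC39A13, chr15:78444378-78444443. SLC39A13 exports zinc from compartments of the secretory pathway, and its loss in people causes a connective tissue disorder of the Ehlers-Danlos group. The mean ratio of its 6 sites had a lowest, median and highest value of 35.2%, 56.0% and 73.2% in young and 11.5%, 17.1% and 28.2% in old cultures. The cultures of the ages did not overlap, and young was higher in all 6 animals, by 37.7 ± 10.3 points. Single sites differed by 29.3 to 47.2 points. At position 78444441 the young cultures were at 42%, 63.5% and 82% (lowest, median, highest) and the old at 12% to 29%, with a median of 17%. At 78444424 the corresponding values were 33%, 53.5% and 60% in young and 0%, 5.50% and 25% in old, again without overlap. The other strand of that CpG, position 78444425, was listed too, with 56.5% ± 21.7 in young and 23.2% ± 14.7 in old cultures. Coverage was low, with a mean of 8.17 to 8.25 reads at 4 of the 6 sites and 5 reads at the lowest.

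SLC39A11, a zinc carrier of the Golgi, had 5 listed intron sites over 176515 bp of chromosome 19, and they did not share 1 direction. At chr19:59034966-59035015, within a CpG island, 3 sites were lower in young, with locus means of 30.7%, 39.3% and 59.3% (lowest, median, highest) in young and 59.3%, 68.7% and 85.0% in old cultures. The highest young and the lowest old culture met at the same value. The mean difference was -26.2 ± 19.6 points, and no animal was higher in young. The strands of 1 CpG, positions 59035014 and 59035015, differed by -23.0 ± 17 and -35.0 ± 29.3 points. A further site, at 58887311, was at 30.3% ± 10.2 in young and 53% ± 11.7 in old cultures. The last, at 59063826, went the other way: young cultures were at 78%, 87.0% and 92% and old cultures at 56%, 67.0% and 67%, with a difference of 22.0 ± 9.12 points and no overlap. SLC39A4, the zinc carrier of the gut epithelium, had 1 exon site that was 21.3 ± 17.2 points higher in young.

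Carriers of carboxylates and sulfate held 11 sites in 8 genes, 8 higher in young and 3 in old. SLC13A5, which takes up citrate with sodium, held the largest difference of the 88 sites. At chr19:25793490-25793503 its 3 intron sites had a locus mean of 30.7%, 62.5% and 95.3% in young and 4.00%, 13.7% and 27.7% in old cultures. The locus means of the ages did not overlap, while the ranges met or overlapped at each single site. The difference was 48.1 ± 23.7 points, from 18.0 to 85.0 among the animals. At position 25793503 young cultures were at 36%, 71.0% and 100% and old cultures at 0%, 5.50% and 50%, a difference of 55 ± 30.7 points with overlapping ranges. The opposite strand of that CpG, 25793502, was higher in young by 40.2 ± 35.5 points in 5 of 6 animals, and young culture 2 was at 9% there. A further SLC13A5 site, at 25806026, was lower in young in all 6 animals, by -19.0 ± 12.2 points.

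SLC13A4, a sodium-coupled sulfate carrier, had an intron site with 12%, 69.0% and 100% in young and 0%, 21.0% and 44% in old cultures. The ranges overlapped although each animal was higher in young, by 40.5 ± 31.4 points on average. In the promoter of SLC26A10, old cultures had 0 methylated reads of 89, which allows up to 3.37%, while young cultures were at 7%, 11.0% and 31%. These are low levels on both sides, set apart by 13.8 ± 8.89 points. SLC16A6, of the monocarboxylate carriers, had an intron site, also annotated to ARSG, that was lower in young by -23.8 ± 12.6 points in 6 of 6 animals. Its ranges overlapped widely, from 0% to 83% in young and from 33% to 100% in old cultures. The lactate exporter SLC16A3 had an exon site at -18.5 points, and SLC16A7, which takes up pyruvate and lactate, an intron site 16.8 points higher in young. The sulfate carrier SLC26A11 and the dicarboxylate carrier SLC13A3 had intron sites 10.7 and 21.0 points higher in young.

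**Figure D2:**
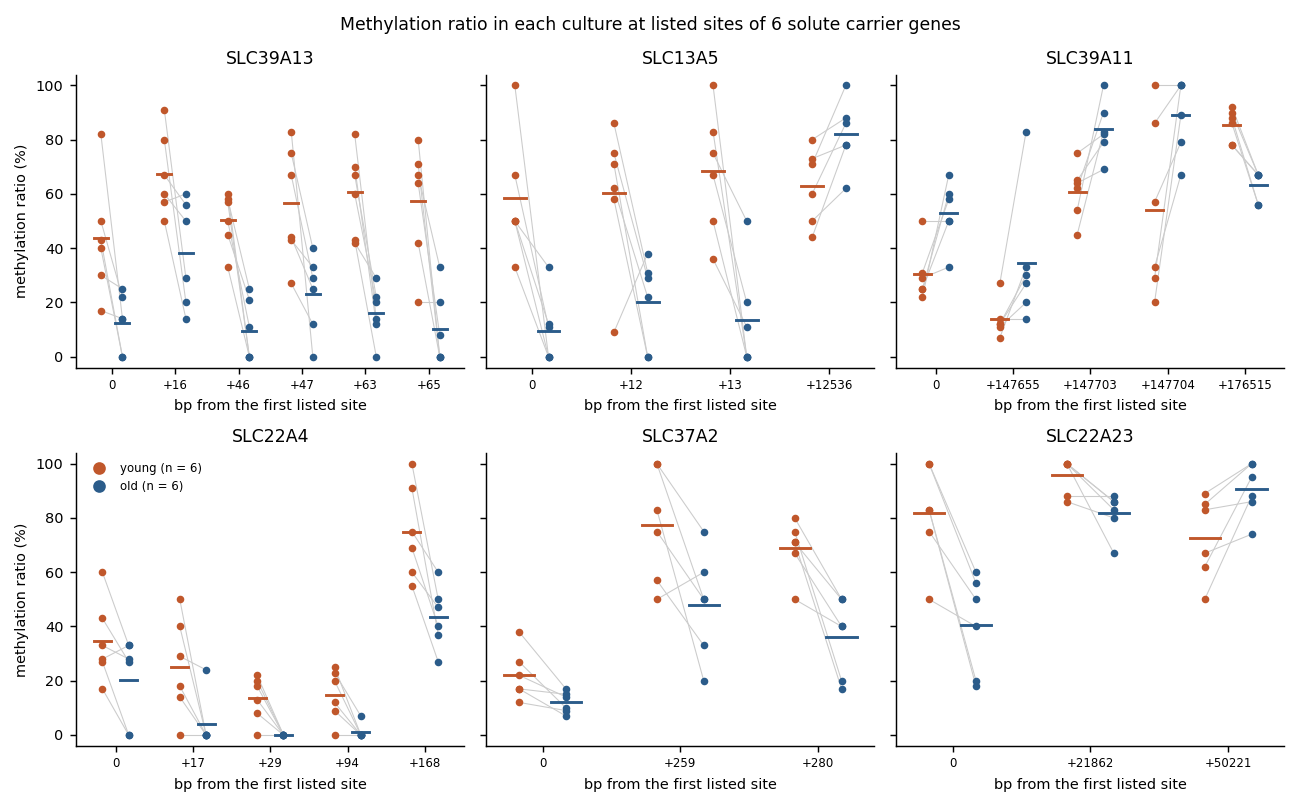
Methylation ratio (vertical axis, %) in each of 6 young and 6 old cultures at the listed sites of 6 genes, placed in order along each gene with the distance from its first listed site in bp. Grey lines join the cultures of 1 animal and bars are group means; at the 6 SLC39A13 sites young means are all above old means, while SLC39A11 has 4 sites lower in young and 1 higher.

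Amino acid carriers held 15 sites in 8 genes, and none of these genes had sites in both directions. Higher in young were all sites of SLC7A5, SLC7A4, SLC16A10 and SLC38A9. Lower in young were those of SLC38A8, SLC43A1, SLC43A2 and SLC6A6. SLC7A5 is the exchanger that brings leucine and other large neutral amino acids into growing cells. Its neighbouring intron sites at 13352147 and 13352168 of chromosome 18 had a mean of 41.5%, 89.5% and 93.0% in young and 41.5%, 48.0% and 75% in old cultures. The ranges overlapped, and 5 of 6 animals were higher in young, by 23.3 ± 20.3 points on average. The other SLC7A5 site, 11052 bp from the first, was 25.5 ± 23.6 points higher in young.

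SLC7A4 belongs to the family of cationic amino acid carriers by sequence. Its exon sites at chr17:74366464-74366538, which the list places also in an intron of PRODH, a proline-degrading enzyme of mitochondria, averaged 54.5%, 75.2% and 85.5% in young and 22.5%, 41.8% and 69.0% in old cultures. All 6 animals were higher in young, by 29.6 ± 14.2 points, with overlapping ranges. SLC16A10, which carries aromatic amino acids, had 2 intron sites 14 bp apart with a mean of 24.0%, 38.0% and 68.0% in young and 9.50%, 11.5% and 19.0% in old cultures. These ranges of the pair did not overlap, while those of each single site did. The difference of the pair was 28.4 ± 13.5 points. SLC38A9, the lysosomal carrier that senses arginine for growth signalling, had 2 intron sites 1435 bp apart, higher in young by 14.0 ± 11.7 and 23.3 ± 18.3 points.

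The taurine carrier SLC6A6 had the largest differences of the amino acid group in the old direction. Its intron site at 58450111 of chromosome 22 was at 12%, 32.0% and 40% in young and 20%, 60.5% and 78% in old cultures, and the site at 58473428 at 56%, 69.0% and 78% against 57%, 100% and 100%. Both pairs of ranges overlapped, and the differences were -27.5 ± 22.9 and -22.0 ± 17.7 points. SLC43A1 and SLC43A2 let large neutral amino acids move down their gradients. SLC43A1 had 2 island sites in introns with low ratios. At 82066687 the young cultures had 0 methylated reads of 51, which allows up to 5.88%, and the old cultures were at 0%, 12% and 20%. The remaining sites of the group, in SLC43A2 and the glutamine carrier SLC38A8, differed by -14.2 and -12.5 points.

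Carriers of organic ions, nucleosides and vitamins held 21 sites in 10 genes, 18 higher in young and 3 in old. SLC22A4 moves ergothioneine, a dietary antioxidant, and carnitine. Its 5 promoter sites, at chr7:23425957-23426125, are also annotated to the promoter of the microRNA gene MIR2457. Their mean was 24.6%, 30.7% and 48.8% in young and 8%, 13.7% and 19.8% in old cultures, with no overlap of these means. At each single site the ranges of the ages met or overlapped. The difference was 18.9 ± 8.17 points, and it was positive in all 6 animals. Levels differed along this promoter: at the 4 sites on the minus strand young means were between 13.5% and 34.7% and old means between 0% and 20.2%, and the fifth site, on the plus strand, was at 75% ± 17.6 in young and 43.5% ± 11.4 in old cultures. At 23425986 old cultures had 0 methylated reads of 83, which allows up to 3.61%.

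SLC22A23, a family member without an established substrate, had 3 intron sites over 50221 bp. At 50239325 of chromosome 23 young cultures were at 50%, 83.0% and 100% and old cultures at 18%, 45.0% and 60%. All 6 animals were higher in young, by 41.2 ± 21.4 points, at a mean coverage of 6.83 reads, the lowest of the 88 sites. The site at 50261187 was higher in young by 14.0 ± 11.2 points, and the site at 50289546 was lower in young in 6 of 6 animals, by -17.8 ± 14.3 points. SLC29A1, the main uptake route of adenosine and other nucleosides, had 3 sites higher in young. Its exon pair at chr23:17855621-17855640 averaged 27.0%, 50.2% and 77.0% in young and 8.50%, 28.8% and 30% in old cultures. The ranges overlapped, 5 of 6 animals were higher in young, and the difference was 25.8 ± 17.3 points.

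The riboflavin carrier SLC52A3 had 2 promoter sites 8 bp apart at high levels, 91.8% ± 7.24 in young and 74.7% ± 5.96 in old cultures as a pair. SLC22A15 had 2 promoter sites 62 bp apart, at 43.1% ± 20.1 and 26.4% ± 11.7. SLC27A5, which activates bile acids in liver, had 2 sites higher in young in all 6 animals, by 14.2 ± 6.24 points in an exon and 22.8 ± 13.5 points in its promoter. Promoter sites of the organic anion carrier SLC22A7 and of SLC46A2 were 13.8 and 10.2 points higher in young. In the old direction the urea carrier SLC14A2 had an intron site at -20.7 ± 18.9 points, and SLC29A3, a nucleoside carrier of lysosomes, an intron site at -18.8 ± 13.8 points. Ranges of the ages overlapped at both.

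Carriers of inorganic ions held 13 sites in 11 genes, 11 higher in young and 2 in old. SLC20A2 takes up phosphate with sodium. It had 2 promoter sites 296 bp apart at different levels. At 37017210 of chromosome 27, young cultures were at 25%, 58.5% and 67% and old cultures at 0%, 14.5% and 33%. All animals were higher in young, by 35.7 ± 26.7 points, and the ranges overlapped. At 37017506, inside a CpG island, the ratios were 11.8% ± 8.70 in young and 1.33% ± 3.27 in old cultures. SLC8A1, the sodium and calcium exchanger of heart muscle, had an intron site 23.0 ± 14.1 points higher in young, and the chloride and bicarbonate exchanger SLC4A2 a promoter site at 23.3% ± 17.2 in young and 1.5% ± 3.67 in old cultures.

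SLC12A5, the potassium and chloride exporter of neurons, had 2 intron sites 6829 bp apart, 11.5 and 13.3 points higher in young. In the old direction were the promoter site of SLC8B1, the sodium and calcium exchanger of mitochondria, at 4.17% ± 4.58 in young and 16.3% ± 9.91 in old cultures, and an intron site of the endosomal exchanger SLC9A9. Single sites in SLC12A3, SLC8A3, SLC24A1 and SLC9A3, carriers known from kidney, nerve, retina and gut, were 11.8 to 19.8 points higher in young. The island site in an exon of SLC9A3 had the best coverage of the 88, 28.7 reads on average, and 0 of 170 reads were methylated in old cultures, which allows up to 1.76%. Its coverage was an even number in every culture, so overlapping mates may have been counted separately and this limit may be too low.

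Sugar carriers held 7 sites in 4 genes, 6 higher in young. SLC37A2 belongs to the sugar phosphate exchangers of the endoplasmic reticulum. It had 3 intron sites within 280 bp of chromosome 29. The pair at 28876554 and 28876575 averaged 62.5%, 69.5% and 90.0% in young and 25%, 42.5% and 62.5% in old cultures, so the lowest young and the highest old culture met. All 6 animals were higher in young, by 31.2 ± 11.5 points. SLC5A9, a sodium-coupled mannose carrier, had an exon site at 33%, 37.0% and 62% in young and 0%, 17% and 33% in old cultures, and the difference was 28.3 ± 14.1 points in 6 of 6 animals. SLC5A10, a related carrier of the kidney, had sites in both directions 53919 bp apart. Its promoter site was 25.2 ± 23.8 points higher in young, and its intron site at 34819470 of chromosome 19 was at 17%, 60% and 75% in young and 70%, 87.5% and 100% in old cultures. These ranges overlapped, and 5 of 6 animals were lower in young. SLC5A1, the glucose carrier of the gut, had a promoter site 11.8 ± 9.50 points higher in young.

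Carriers of organelles had 5 sites in 5 genes, 2 higher in young and 3 in old. SLC25A42 brings coenzyme A into mitochondria. Its exon site in a CpG island was at 0%, 10.5% and 14% in young and 17%, 27.5% and 40% in old cultures, and this was the single site in the old direction whose ranges did not overlap. The difference was -19.3 ± 9.85 points. SLC35F3, a thiamine carrier, had an intron site that was -22.0 ± 14.7 points in young against old in 6 of 6 animals, with overlapping ranges. The promoter of SLC35D3, of the nucleotide sugar carriers, had 0 methylated reads of 63 in young cultures, which allows up to 4.76%, and 0%, 10.5% and 22% in old cultures. Promoter sites of SLC25A16, of the mitochondrial carriers, and SLC35C1, which brings GDP-fucose into the Golgi, were 13.5 and 11.0 points higher in young.

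Carriers of transmitters and choline had 4 sites in 4 genes, each with an absolute difference of at most 14.5 points. Promoter sites of the vesicular nucleotide carrier SLC17A9 and the choline carrier SLC5A7 differed by 11.8 ± 8.80 and -12.2 ± 11.1 points. Intron sites of the noradrenaline carrier SLC6A2 and the vesicular glutamate carrier SLC17A6 were 14.5 and 12.7 points higher in young.

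By position in the gene, 24 sites in 17 genes lay in promoters (2.5 kb before to 1 kb after the start of transcription), 15 in exons and 58 in introns, with some sites in more than 1 class. Promoters held 27.3% of the solute carrier sites and 25.3% of the annotated listed sites, exons 17% and 23.9%, and introns 65.9% and 65.5%. CpG islands held 28.4% and 31.9%. These shares were not tested. Of the 24 promoter sites, 21 were higher in young, and those of SLC35D3, SLC5A7 and SLC8B1 were higher in old. Over the whole list, 752 of 1117 promoter sites were higher in young, and this comparison was not tested either. The 21 are not separate cases, since 5 of them lie in the SLC22A4 promoter and others are neighbours as well. Promoter sites had a median absolute difference of 13.8 points and sites in introns alone one of 22.3 points. The mean ratio over all cultures was under 20% at 13 of the 24 promoter sites and over 70% at 5. The high ones were in SLC52A3, SLC22A7, SLC27A5 and SLC5A1. In 9 places all 6 cultures of 1 age had 0 methylated reads, 7 of them in old and 2 in young cultures, and the upper limits that 3 counts set there were between 1.76% and 5.88%. Such intervals cover counting error only, and reads of PCR products are not independent molecules.

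**Figure D3:**
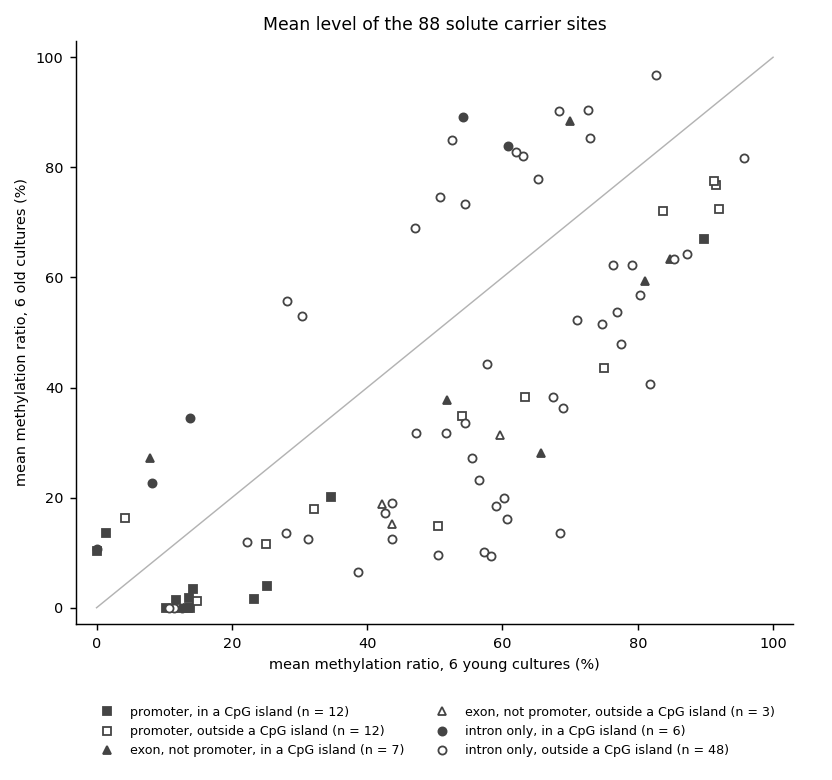
Mean methylation ratio of 6 old cultures (vertical axis, %) against that of 6 young cultures (horizontal axis, %) at the 88 sites, by gene class (shape) and CpG island (filled inside, open outside); the grey line marks equal levels. Of the promoter sites, 13 of 24 average under 20%, and most sites outside islands lie at middle or high levels.

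The 53 genes were spread over 23 chromosomes. Chromosome 19 held 15 sites in 7 genes, SLC13A5, SLC39A11, SLC5A10, SLC43A2, SLC16A3, SLC26A11 and SLC16A6. That is 17% of the solute carrier sites, against 5.21% of the whole list and 5.27% of all tested sites, and the difference was not tested. The listed sites of SLC13A5 and SLC39A11 made up 9 of the 15. No solute carrier site was on the X chromosome.

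The tested but unlisted positions around the sites were read next. They share fragments, animals and the contrast with the listed sites, so they are a description and not a repeat. Within 250 bp lay 421 such positions, among them the 25 unlisted opposite strands of listed CpGs that are described again below. The 275 nearest to a site higher in young had a mean difference of 2.88 points, and it was above 0 in 6 of 6 animals. Of them 153 were higher in young, 83 higher in old and 39 equal. The 146 nearest to a site higher in old had a mean of -1.72 points, below 0 in 6 of 6 animals, with 36 higher in young, 71 higher in old and 39 equal. With windows of 100 and of 1000 bp, 1 animal was above 0 near sites higher in old. The median of the 146 was 0 points, against 1.17 near sites higher in young. The mean of the 146 leans on the SLC39A11 island locus, whose 10 neighbours averaged -15.7 points. All tested positions averaged 0.437 points. By distance, the mean difference of the neighbours was as follows. Near sites higher in young it was 4.67 points up to 25 bp, 2.89 from there to 100 bp, -0.0258 from there to 250 bp and 1.21 from there to 1000 bp. Near sites higher in old the same distances gave -2.95, -1.60, -0.214 and -0.271 points. Up to 25 bp, 6 of 6 animals were above 0 near sites higher in young. Near sites higher in old, 2 of 6 animals were above 0 at that distance, with animal means from -7.96 to 3.41 points. The distances do not hold the same genes. The shortest one also holds the opposite strands of the listed CpGs, whose part in the decline was not tested. Near sites higher in old, the positions between 100 and 250 bp lay at 3 genes, with a mean ratio of 1.39%, where little difference can show. The means were thus farthest from 0 at the shortest distance, and near sites higher in young the decline did not continue beyond 250 bp. Neighbours are by definition the positions that did not pass the selection, so the size of their differences is not comparable to that of the listed sites. The part of this rule in the gap was not tested. A mean difference of 10 points or more in either direction was found at 56 of the 421 (13.3%) and at 5.36% of all unlisted tested positions. These 56 missed the selection on P alone, some by little and others by far. Near the threshold, an unlisted SLC38A9 position at 23541115 differed by 13.5 ± 13.8 points and the listed SLC12A5 site at 75495504 by 13.3 ± 12.8 points. Far from it, an unlisted SLC27A5 position at 65926476 differed by -12 ± 33.4 points. The smallest listed differences, 10.2 points, were in SLC46A2 and SLC37A2.

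Genes differed in how far the neighbours followed. Around the SLC39A11 island locus 10 of 10 unlisted neighbours were lower in young, by -15.7 points on average. The 3 neighbours of the SLC22A15 pair were all higher in young, by 12.6 points on average, and so were the 4 of SLC52A3, by 13.5 points. By contrast, the island promoters of SLC35D3 and SLC5A7 had 32 and 36 neighbours with means of -0.0938 and -0.639 points, and the site of SLC9A3 had 29 neighbours with a mean of -0.0517 points. These means hide positions of either sign. Single neighbours ranged from -3.33 to 2.83 points at SLC35D3, from -8.83 to 5.00 at SLC5A7 and from -19.0 to 5.67 at SLC9A3, and 21 of the 36 at SLC5A7 had the direction of the listed site. The 42 neighbours of the first SLC22A4 site averaged 3.06 points, and 28 of them were higher in young. The SLC39A11 site at 59063826, itself higher in young, had 5 neighbours with a mean of -2.47 points. Of these, 2 were higher in young, and the 3 within 100 bp were all lower in young. SLC13A4, SLC16A6 and SLC22A7 were among the genes whose sites had no tested neighbour within 250 bp.

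**Figure D4:**
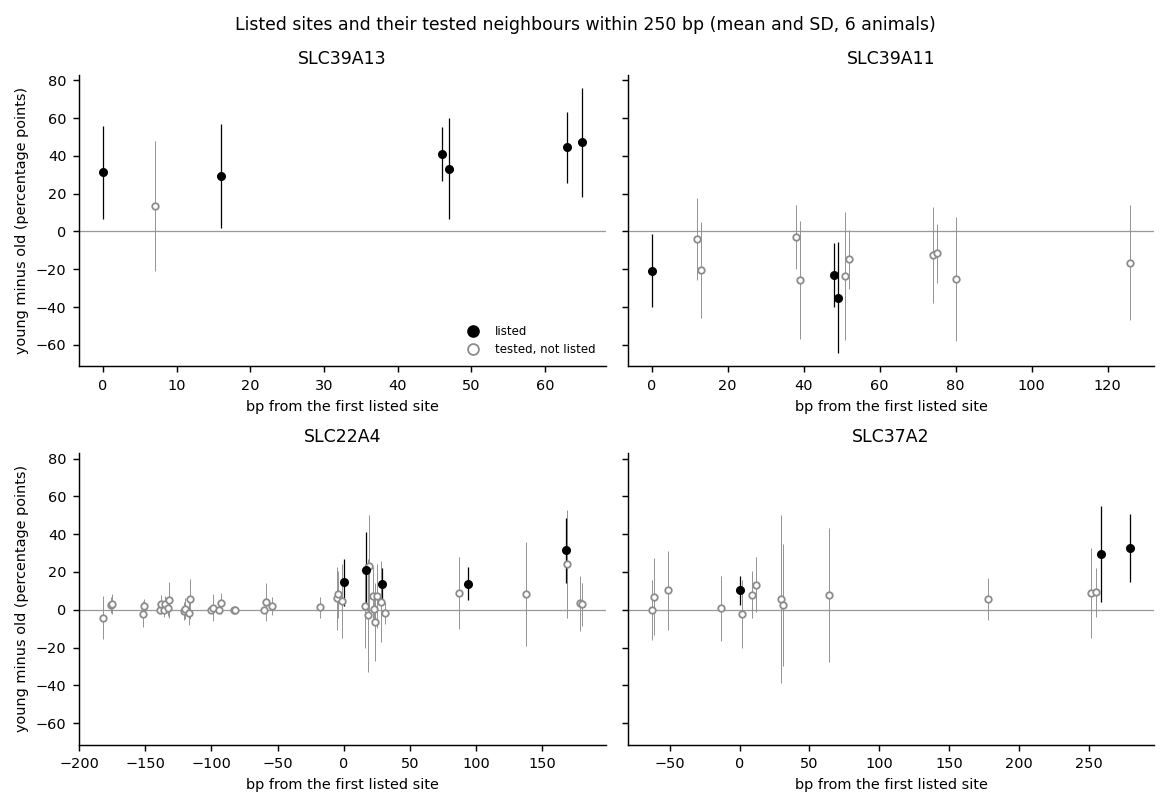
Young minus old difference (vertical axis, percentage points; mean and SD over 6 animals) at listed sites (filled) and tested unlisted positions within 250 bp (open) around loci of SLC39A13, SLC39A11, SLC22A4 and SLC37A2, by distance from the first listed site in bp. All 10 open points of SLC39A11 lie below 0, and the 42 around SLC22A4 lie close to 0 for the most part.

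A CpG reads the same on both strands, and in most cells both of its cytosines have the same state. The opposite strand was among the tested positions for 31 of the 88 sites. It was listed in the same direction for 6 sites, which are the strand pairs of SLC39A13, SLC13A5 and SLC39A11. The other 25 partners were counted among the neighbours above, and 18 of them differed in the same direction as the listed strand. The listed strands of these 25 had a median of 21.0 points in their own direction and the partners one of 3.67 points. The partner of the SLC22A4 site at 23426125 was higher in young by 24.3 points, that of the first SLC13A5 site by 26.7 points, and that of the SLC16A10 site at 39720166 by 27.8 points. The partner strands of SLC13A3 and SLC8A1 went the opposite way, by -14.5 and -9.67 points against 21.0 and 23.0 on the listed strand. The listed strands had been chosen for their difference and the partners had not, and the part of this choice and of read depth in the gap was not tested.

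**Figure D5:**
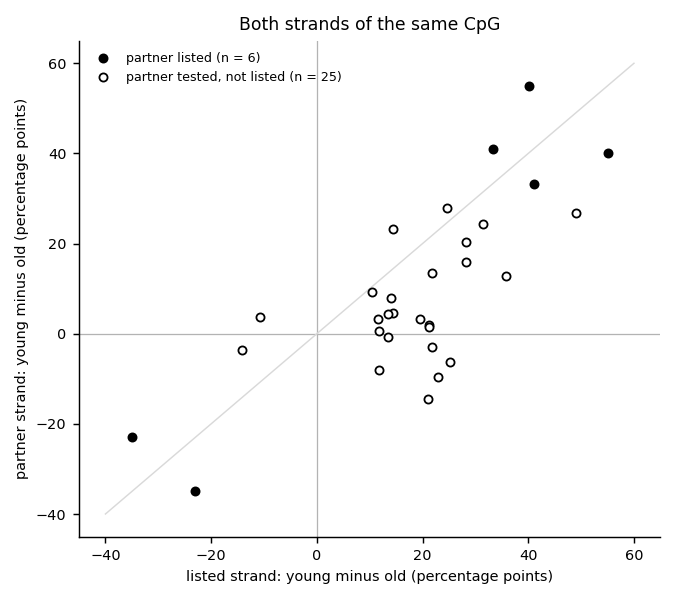
Young minus old difference of the opposite strand (vertical axis, percentage points) against that of the listed strand (horizontal axis) for the 31 sites with both strands tested; filled points mark 6 sites whose partner was listed too, and the grey line marks equality. Of the 25 open points, 18 share the sign of the listed strand, and most lie nearer to 0 than it.

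The same 88 sites were read under other tests, with the share of all tested sites that each passes unless another base is named. Recomputed from the rounded ratios with the added minimum of 10 points, the paired comparison of the methods passed 87 of them, and the SLC12A5 site at 75495504 just missed it. Without the pairing, 49 sites higher in young and 21 higher in old passed (1.91% of all tested), and with limma and the animal as a block 65 and 23 (1.95%). A quasi-binomial model of the reads passed 42 and 11 (1.23%), and the exact sign-flip permutation test, which can pass only where all 6 animals share the direction, 26 and 8 (0.776%). Where coverage reached 10 reads in each culture, 6 and 1 sites passed (1.06% of the 273681 tested sites with that coverage). With the strands of a CpG merged, 50 and 20 passed (1.80% of 619920 merged CpGs). At 7.95% of the solute carrier sites every culture had 10 reads or more, against 16.4% of the annotated listed sites.

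The spread among animals was wider at some levels than at others. At the sites higher in young the median SD was 15.8 points over young and 11.6 points over old cultures, and at the sites higher in old it was 10.3 and 10.9 points. Averaged over the 65 sites higher in young, each animal differed by 21.8 to 24.5 points. Over the 23 sites higher in old the animals were at -24.1 to -17 points, except animal 2 at -11.4 points. Its young culture had a mean ratio of 49.1% at these sites, against 36.0% to 44.7% in the other young cultures. Its old culture, the one of lowest depth, was at 60.5%, and the other old cultures were at 60.2% to 62.8%. Whether depth takes part in the value of animal 2 was not tested. At 18 sites each of the 12 coverage values was even (20.5%, against 18.4% of the annotated listed sites). The methods did not merge overlapping mates of a read pair, so 1 molecule can count as 2 reads there, and its part in the differences was not tested.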

How the data were processed

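RRBS data of 12 cultures were used, paired by heifer. The authors trimmed reads with Trim Galore (0.3.7, Phred 20, FastQC 0.11.1), aligned them with Bismark (0.13.1) to bosTau8 and kept uniquely mapped reads. Overlapping mates were counted separately. The deposited methylation ratio is a fraction, C/(C + T), with 2 decimals, and is printed here as a percent. The deposited coverage is the read count behind it, not normalized, and at least 5 in every culture. The deposited p-value comes from the authors' comparison, is not adjusted, and served only to define the list. Their list of positions with a P below 0.05 gave the gene and island annotation. Positions printed are the end of the interval that the authors give, which is 1 base long. The base itself could not be checked without the genome.

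The paired Student's t test of the methods, with an unadjusted P below 0.05, was recomputed over all 838705 positions. A minimum mean difference of 10 points, which the methods do not state, was added. The ratios of the list equalled those of the table at all 88 sites. Sites at most 100 bp apart formed a locus, and unlisted tested positions within 250 bp were neighbours. Alternatives were limma with an animal block, an unpaired test, a quasi-binomial model with the dispersion held at 1 or more, the exact sign-flip permutation test, Benjamini-Hochberg adjustment, 10 reads in every culture, 25 points, merged strands, windows of 100 and 1000 bp, and each animal left out. The tests were tried on 20000 simulated sites of which 200, at middle mean ratios, differed by 40 points. The paired test recovered 96.0%, the unpaired 97.0%, limma 96.5%, the quasi-binomial model 96.5% and the sign-flip test 87.5%. Of the unchanged simulated sites they called 1.38%, 1.61%, 1.59%, 1.07% and 0.717%, in the same order. The spread among simulated cultures was a fixed setting, not fitted to the data, and animals had no effect of their own. The simulated shares therefore do not tell how many unchanged sites would pass in the data, where the paired test passed 1.68% of all tested sites. Smaller differences, such as the median of 20.7 points at the 88 sites, were not simulated.

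The cultures with 1 number are of the same heifer, which gives the pairing. Deviations from the group means correlated within animals with a median of 0.0435 (-0.00240 to 0.0899) and between animals with -0.0133. No culture was a copy of another: ratios of any 2 cultures correlated at 0.9308 to 0.9488. Cultures of 1 age are separate animals.

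Members, roles and rules were chosen with earlier results of these data and the study's supplementary tables known. Named genes were those with 2 or more listed sites, those with a listed promoter site, and the 5 per direction with the largest difference at 1 site. Other genes are given by role. The values of 1 such gene are not reported here, and its site is in the counts only. The software was Python 3.11.15, numpy 2.4.6, pandas 2.3.3, scipy 1.17.1, matplotlib 3.10.9, R 4.3.3 and limma 3.58.1.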

Additional observations from a re-analysis of the deposited data

Results flagged for a closer look

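Among the 176 groups of 6 cultures at the 88 sites, 17 held a culture whose gap to the nearest other was large for the range of its group by Dixon's criterion. Chance flags about 1 in 20 groups, and many of these groups have most cultures at 0%, where the criterion is easily met. The 17 lay at 15 sites of 12 genes, 15 of them high and 2 low, 7 in young and 10 in old cultures.

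In old cultures at low levels, the SLC4A2 promoter site had 9% in culture 5, with the others at 0%. SLC22A4 had 24% in culture 6 at 23425974 and 7% in culture 2 at 23426051. SLC17A9 had 11% in culture 2, SLC35C1 20% in culture 4, and the SLC20A2 island site 8% in culture 4, in each case with the others at 0%. At the SLC13A5 site 25793490, old culture 4 was at 33% and the next at 12%.

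Among young cultures, SLC26A10 had 31% in culture 4 (next 15%), SLC5A7 had 8% in culture 4 with the others at 0%, and SLC17A9 had 38% in culture 2 (next 14%). The SLC9A9 site was at 83% in culture 1 (next 73%). At the SLC13A5 site 25793502, culture 2 was low at 9%, with the next at 58%, and it was the animal that went against the direction there. The SLC39A11 site 58887311 had 50% in culture 6 (next 31%).

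At the SLC39A11 site 59034966 both cultures of animal 5 stood out, with 27% in the young (next 14%) and 83% in the old culture (next 33%). The remaining flagged values were in old cultures: SLC38A8 had 89% in culture 3 (next 78%), and the SLC6A6 site 58473428 had 57% in culture 5, below 85% in the next.

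The share of reads on the 88 sites was high in old culture 2, at 51.7 per 1000000 reads against 44.1 in the next old culture.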

How the results depend on the processing

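Recomputed with the added minimum of 10 points, the paired comparison of the methods passed 64 sites higher in young and 23 higher in old. With a minimum of 10 reads in each culture 6 and 1 passed, with a minimum difference of 25 points 22 and 3, under the quasi-binomial model 42 and 11, and under the exact sign-flip permutation test 26 and 8. Benjamini-Hochberg adjustment over all tested sites left 0 and 0, against 64 and 23 at the unadjusted P and 65 and 23 at limma's unadjusted P. Fewer sites can pass by construction under the minimum of 10 reads and of 25 points. The sign-flip test of 6 pairs can pass only where all 6 animals share the direction, so its counts are those of that agreement and not a separate check. For the quasi-binomial model the cause was not tested. With animals 1 to 6 left out in turn, 43, 40, 33, 35, 38 and 35 sites higher in young and 8, 16, 9, 12, 11 and 11 higher in old passed, from 5 pairs in place of 6.

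Without the pairing (no replicate block) 49 and 21 passed, and with merged strands 50 and 20. No single site changed direction under any of these settings. The neighbours' mean difference, signed by the direction of the nearest listed site, was 2.48 ± 1.12 points (SD over 6 animals), 3.30 within 100 bp, 1.79 within 1000 bp, 1.59 at 117 positions with 10 reads in every culture, and 2.05 to 2.63 without 1 animal. Depth limits single ratios: at the median coverage of 11.8 reads, 1 read moves the ratio of a culture by several points.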
